A study of Homo sapiens with 2 samples.

Results

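The peaks described here are mERG peaks at the 3' ends of genes. They are the peaks of the deposited list whose location class is 3' UTR or TTS, and there were 410 of them among 18070 peaks (2.27%, Wilson 95% interval 2.06 to 2.50%). The 3' UTR class held 257 peaks and the TTS class 153, where TTS stands for the transcription termination site, the annotated end of a transcript. Both classes were compared with the 15830 peaks in introns. The list comes from ChIP-seq in VCaP, a prostate cancer cell line with the TMPRSS2/ERG fusion, with 1 library from an antibody against methylated ERG (mERG) and 1 control library. The control is titled as input and carries an IgG antibody label, so its kind was not settled. The cells were grown in regular medium, both libraries came from the same line, and neither has a replicate, so no value below has a replicate error. Read depth is unknown from the list. Each peak has a score, from the peak caller MACS, and a higher score was read as a stronger peak.

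ERG belongs to the ETS family of transcription factors, which bind DNA at a GGAA core. In prostate tumors with the TMPRSS2 fusion, the androgen-responsive TMPRSS2 promoter drives ERG, and the Polycomb methyltransferase EZH2 can methylate a lysine of the ERG protein. The 3' UTR is the part of an mRNA after the stop codon, where microRNAs and RNA-binding proteins act on the transcript. At the end of a gene the transcript is cleaved after a poly(A) signal, often AAUAAA, while the polymerase reads on and is then released. A ChIP peak over a 3' UTR is a peak on the DNA that encodes it, not on the RNA.

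Sequences at the centres of strong peaks are shown first, because the GGAA core is the letters an ETS factor reads. Of the 10 highest scoring peaks of each class, 20 in all, 14 were searched and 6, among them the strongest TTS peak, were left out. The search was made within 100 bp of the peak centre, on both strands, for AGGAAG and CGGAAG, which contain GGAA, and otherwise for GGAA alone. Of the 14 peaks, 3 held a 6-letter match, 9 held GGAA alone and 2 held neither with enough bases around it to print. GGAA was also in 83.5% of intron peak windows of this length. Shown are the 8 whose match lay within 30 bp of the centre, a choice made after the matches were seen, while in the other 4 it lay 43 to 76 bp away. Each run below has 30 bases, with the match nearest to the centre in capitals, on hg19 and in the orientation of the match.
KMT5B 3' UTR, chr11:67933674-67933703, - strand: gctttgaaatattGGAAccatttctaattg
KMT5B 3' UTR, chr11:67925088-67925117, + strand: ggaataattgactGGAAttttttatttctt
RAB11A 3' UTR, chr15:66181584-66181613, + strand: gtgtggggcacaCGGAAGgcattgctgtag
RBM4 3' UTR, chr11:66434563-66434592, + strand: aagggataagttaGGAAcaccagaaactca
ESAM-AS1 TTS, chr11:124635873-124635902, + strand: tttcagctgctcAGGAAGctttgaggcagg
NF1 TTS, chr17:29550274-29550303, - strand: cattataatcaaaGGAAataagtctacagg
LINC01012 TTS, chr6:27678676-27678705, + strand: ctggatttaaaaAGGAAGggctaaatgtca
OAZ3 TTS, chr1:151743762-151743791, - strand: ttattcctaggatGGAAagtgtcctgaatc
In the window searched, the 2 strongest 3' UTR peaks, both in KMT5B, held the core only as GGAA. They were 2544 and 4454 bp wide, so most of each was not searched. RAB11A had the letters CGGAAG, and the peaks at the ends of ESAM-AS1 and LINC01012 had AGGAAG. A match is a description of the letters in the window and not of a bound site.

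The TTS class included 16 peaks at 14 microRNA genes. A microRNA gene is so short that its TTS window covers the gene and the DNA just after it. The peak centres lay between 246 and 1059 bp past the start of the gene. Mature sequences from RefSeq (GRCh38.p14) were examined for 11 of the 14 genes, and those of the other 3 were left out. The 11 genes had 16 sequences with 16 different seeds, so no seed was shared among them. Shown are those of the 5 strongest peaks among these 11 genes, with the seed (bases 2 to 8) in capitals.
hsa-miR-6081: aGGAGCAGugccggccaaggcgcc
hsa-miR-365b-5p: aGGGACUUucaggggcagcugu
hsa-miR-365b-3p: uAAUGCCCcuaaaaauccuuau
hsa-miR-3115: aUAUGGGUuuacuaguuggu
hsa-miR-340-5p: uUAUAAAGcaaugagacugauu
hsa-miR-340-3p: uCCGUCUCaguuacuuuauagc
hsa-miR-3973: aCAAAGUAcagcauuagccuuag
Among these 11 genes, MIR6081 had the strongest peak, with a score of 81.3 (chr9:97828309-97828940), while the strongest peak at any of the 14 belongs to a gene left out here and is given with the TTS peaks below. The peak after MIR365B (chr17:29903051-29903885) had a score of 68.6, and its centre lay 1038 bp past the start of the gene. MIR3115 (chr1:23371269-23371593) followed with 61.3 and MIR340 (chr5:179441640-179442426) with 56.2. MIR148B had 2 peaks, with scores of 42.6 and 33.5, and MIR454 a single one with a score of 33.1.

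The location classes were checked against GENCODE on the same genome build. All 257 centres of 3' UTR peaks lay in a 3' UTR of a coding transcript, and the list placed all 257 in the last exon of the transcript it names. Of the TTS peaks, 142 of 153 (92.8%) had their centre between 100 bp before and 1 kb after the end of a GENCODE transcript. For 104 of the 257 3' UTR peaks (40.5%) that was also true, so the 2 classes adjoin and partly share space. TTS peaks belonged to coding transcripts in 118 cases and to non-coding transcripts in 35.

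3' UTR peaks had lower scores than intron peaks, while the difference for TTS peaks did not pass the test. The median score was 39.3 for 3' UTR peaks (quartiles 35.3 and 46.5, highest 150.8) and 40.8 for TTS peaks (quartiles 35.9 and 49.8, highest 222.0). Intron peaks had a median of 41.2, with quartiles of 36.3 and 50.7 and a maximum of 585.7. A score above the joint median was found for 103 of the 257 3' UTR peaks (40.1%) and for 50.1% of intron peaks (Fisher's exact test, two-sided, p = 0.00162, adjusted over 8 comparisons 0.0130). For TTS peaks the share was 48.4% against 50.0% (Fisher's exact test, adjusted p = 0.852). Both classes together had a median of 39.8, which was 1.47 below that of introns (Fisher's exact test, adjusted p = 0.0236). The difference between 3' UTR and TTS peaks themselves, medians of 39.3 and 40.8, did not pass the test (Fisher's exact test, adjusted p = 0.272). Against only the 1280 intron peaks that name a gene with a 3' end peak, the score differences were larger, at -3.49 for 3' UTR peaks (Fisher's exact test, adjusted p = 2.24e-05), -1.97 for TTS peaks (adjusted p = 0.124) and -2.99 together (adjusted p = 8.14e-05). Among peaks with a score of 50 or more, of which 44 lay in 3' UTRs, the 3' UTR difference was larger, -3.40, and did not pass (Fisher's exact test, adjusted p = 0.811), in fewer peaks that were selected by the score itself. With the strongest peak of each gene and class alone, the TTS difference was -4.42 and passed (Fisher's exact test, adjusted p = 0.000293), but 153 TTS peaks in 142 genes stood against 15830 intron peaks in 4300 genes. The strongest of more peaks tends to be higher, so that this value does not show lower TTS scores. These tests compare peaks of 1 library with each other, and nearby peaks are not independent.

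A score of 50 or more was reached by 25.0% of all 18070 peaks. Among 3' end peaks, 82 of 410 did so (20.0%, Wilson 95% interval 16.4 to 24.1%), against 26.2% of intron peaks. The 3' UTR class had 44 such peaks (17.1%, interval 13.0 to 22.2%) and the TTS class 38 (24.8%, interval 18.7 to 32.2%). Within the TTS class, 14 of 35 peaks of non-coding transcripts reached 50 (40.0%, interval 25.6 to 56.4%) and 24 of 118 peaks of coding transcripts did (20.3%, interval 14.1 to 28.5%). These intervals overlap and cover counting error only. A score of 100 or more was seen in 7 of the 410 peaks (1.71%), against 2.34% of intron peaks and 2.23% of all peaks.

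With all intron peaks as the comparison, width separated the classes less than score. This did not hold against the intron peaks of the same named genes, where TTS width passed the test (-67 bp, Fisher's exact test, adjusted p = 0.00424) and TTS score did not. The median width was 393 bp for 3' UTR peaks, 409 bp for TTS peaks and 404 bp for intron peaks. None of the 4 width comparisons passed the test (Fisher's exact test, adjusted p from 0.758 to 0.935). A width of 1 kb or more was found in 5.77% of all peaks, in 17 3' UTR peaks (6.61%) and in 11 TTS peaks (7.19%). Against the 1280 intron peaks that name a gene with a 3' end peak, the 3' end peaks were narrower by a median of 77 bp, which passed the test (Fisher's exact test, adjusted p = 1.04e-07). Compared gene by gene by that name, the 3' end was narrower in 110 of 218 genes (50.5%, median difference -7 bp, exact binomial sign test, p = 0.946), so the difference was not seen in pairs by name.

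**Figure D1:**
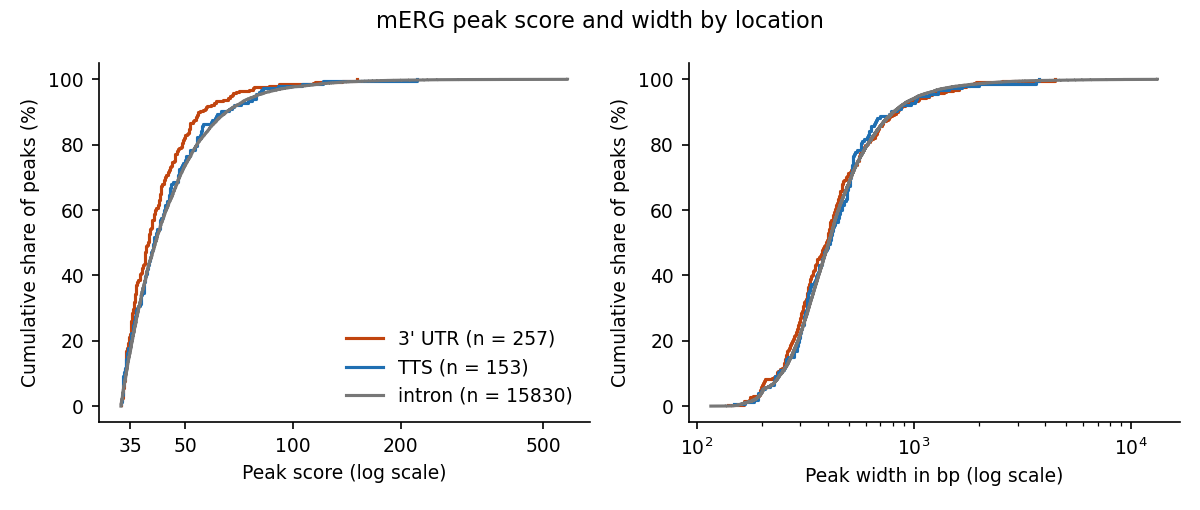
Cumulative share of peaks (%) by score (left, log scale) and by width in bp (right, log scale) for 3' UTR, TTS and intron peaks, with each line a class. The 3' UTR line rises first in score, with a median of 39.3 against 40.8 for TTS and 41.2 for introns, and the 3 width lines run close together.

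Peaks that the list names for the same gene were then compared. The name is that of the nearest TSS, so a pair by name often holds the 3' end of another gene. There were 218 genes named by at least 1 3' end peak and at least 1 intron peak. The median score of the 3' end peaks was below that of the intron peaks in 114 genes and above it in 104 (exact binomial sign test, two-sided, p = 0.542). With 3' UTR peaks alone it was below in 77 of 142 genes (54.2%, exact sign test p = 0.356). With the strongest peak of each kind the 3' end was lower in 163 of the genes, but these hold 281 3' end peaks and 1280 intron peaks, so that the strongest intron peak was taken from more. Paired instead by the gene of the annotated transcript, a choice made after seeing the data, 128 of 225 genes had the lower score at the 3' end (56.9%, Wilson 95% interval 50.4 to 63.2%, exact sign test p = 0.0453, not adjusted). Among the 148 of these genes with at least 3 intron peaks it was 83 (56.1%, exact sign test p = 0.162). With 3' UTR peaks alone in the pairing by transcript it was 98 of 157 genes (62.4%, interval 54.6 to 69.6%, exact sign test p = 0.00232), and with TTS peaks alone 41 of 82. By transcript, KMT5B, a histone H4 lysine methyltransferase, went the other way, with a median of 144.0 at its 3' end and 72.9 over 7 intron peaks. TACC1, a centrosomal coiled-coil protein, had 103.2 against 52.8 over 17 intron peaks. E2F3, a cell cycle transcription factor, had 80.4 at its 3' end against 122.1 over 12 intron peaks.

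**Figure D2:**
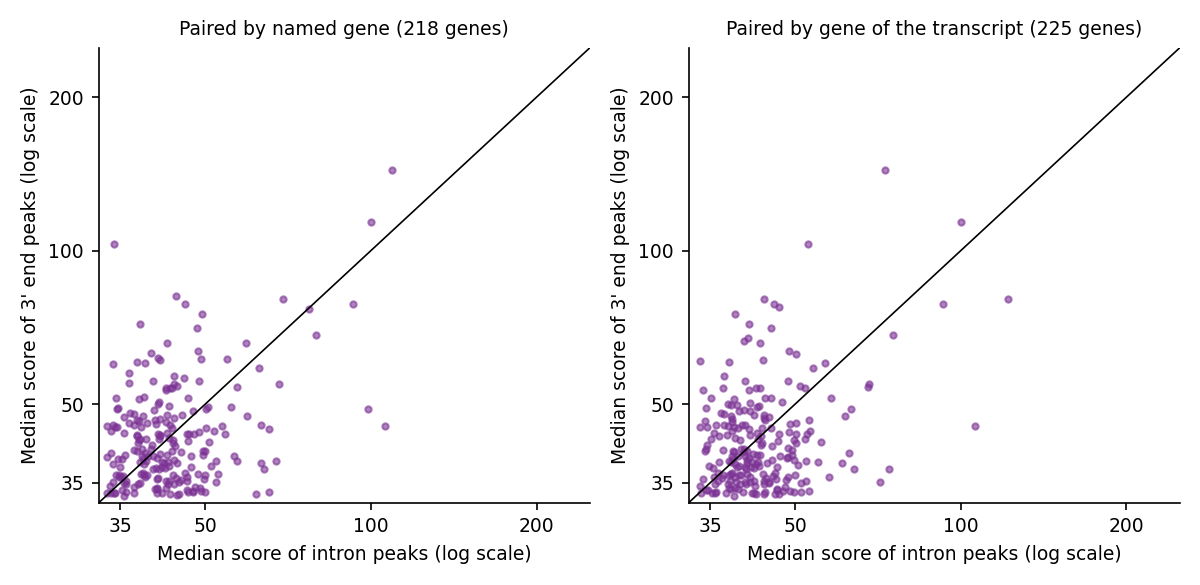
Median score of the 3' end peaks (y axis, log scale) against that of the intron peaks (x axis, log scale) of the same gene, with a point for each gene and a line of equal scores. With genes paired by name (left, 218 genes), 114 points lie below the line, and with genes paired by annotated transcript (right, 225 genes), 128 do.

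Among 3' UTR peaks, the strongest lay in KMT5B. They were 2544 bp (chr11:67932432-67934975, score 150.8) and 4454 bp wide (chr11:67922880-67927333, score 137.3), and the latter was the widest of all 3' UTR peaks. The list names CHKA, a choline kinase gene, for both, since its TSS is the nearest. TACC1 followed with peaks of 115.3 and 91.1 on chromosome 8, both named PLEKHA2, and TM2D2 with 113.8 on the same chromosome. NBN, which encodes a subunit of the MRN complex for DNA double-strand break repair, carried a peak of 85.5 under the name of OSGIN2. RAB11A, a GTPase of recycling endosomes, had 77.6, and ISCA1, a factor of iron-sulfur cluster assembly, had 77.3. The RNA-binding protein genes RBM12 and RBM4 completed the 10 with 75.1 and 70.6. Chromosome 8 held 4 of these 10 peaks, and these were not searched for the ETS core above. Among the 5 widest were also MAPK9, the gene of the kinase JNK2 (1928 bp, score 50.4), and E2F3 (1890 bp, score 39.4).

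The TTS class had the highest score of all 410 peaks, 222.0, at MIR30B on chromosome 8, in a peak 3636 bp wide. MIR30D on the same chromosome had 66.1. Chromosome 8 was left out of the sequences shown above, with 2 of the 10 TTS peaks and the microRNA genes MIR30B, MIR30D and MIR6844. E2F3 came next with 121.4 (chr6:20492775-20496527), a peak of 3753 bp that begins just after the 3' UTR peak of the same gene. ESAM-AS1, an antisense RNA gene, had 105.7. NF1, the gene of the RAS regulator neurofibromin, had 90.7 (chr17:29549702-29550867), and OMG, a myelin glycoprotein gene, had 82.6 (chr17:29620208-29621503). MIR6081, RMDN1, LINC01012, RNF130 (an E3 ubiquitin ligase gene) and OAZ3 followed with scores between 76.9 and 81.3. KANSL1-AS1 was among the 5 widest TTS peaks (1995 bp) with a score of 43.7.

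**Figure D3:**
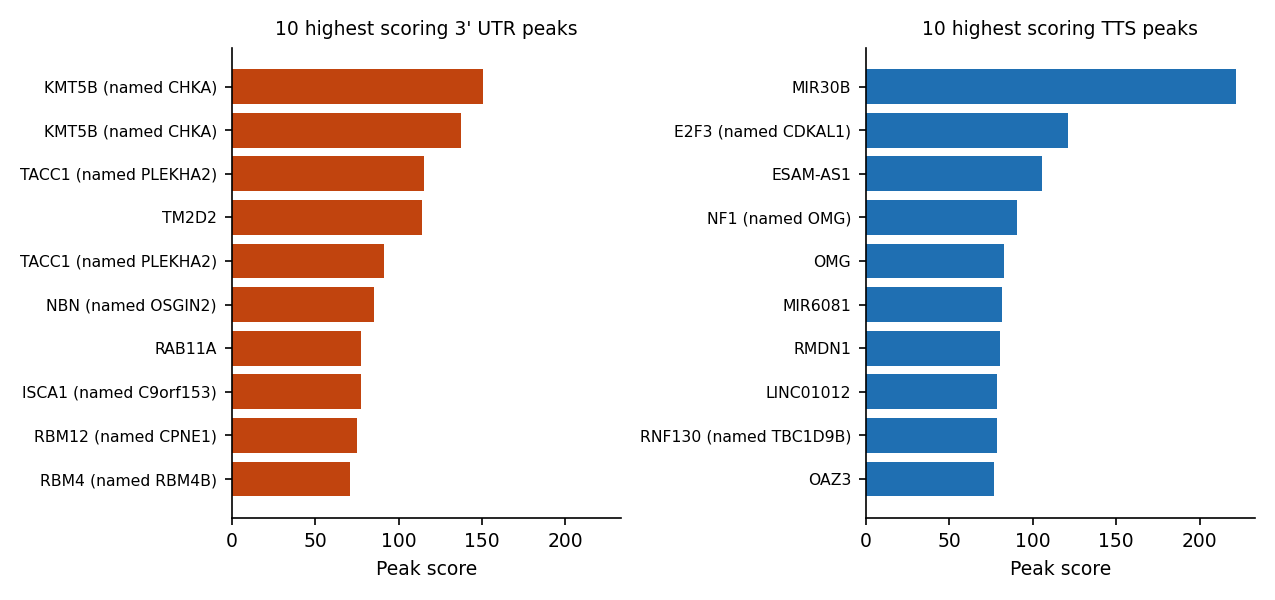
Scores of the 10 highest scoring 3' UTR peaks (left) and TTS peaks (right), with a bar for each peak, labelled by the gene of the annotated transcript and, where it differs, the gene the list names. The highest bars are KMT5B at 150.8 and MIR30B at 222.0, and 8 of the 10 3' UTR peaks and 3 of the 10 TTS peaks are named for another gene.

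Several TTS peaks lay inside another gene. The centre was in an intron of another named coding gene for 33 of 153 TTS peaks (21.6%, Wilson 95% interval 15.8 to 28.7%) and for 14 of 257 3' UTR peaks (5.45%, interval 3.27 to 8.93%). For TTS peaks of non-coding transcripts it was 22 of 35, and for those of microRNA genes 13 of 16. MIR340 lies in RNF130, MIR148B in COPZ1 and MIR454 in SKA2. NF1 held 3 such peaks, at the ends of OMG, EVI2A (score 59.0) and EVI2B (score 40.1), small genes nested in one of its introns. These nested pairs were picked after their values were seen. The median score was 42.6 for the 47 nested 3' end peaks and 39.6 for the other 363, which was not tested. Within classes the direction varied, with 40.8 for 14 nested and 39.3 for 243 other 3' UTR peaks, 43.5 for 22 nested and 51.6 for 13 other TTS peaks of non-coding transcripts (for microRNA genes among them, 38.9 for 13 and 68.6 for 3), and 40.42 and 40.45 for nested and other TTS peaks of coding transcripts.

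Some 3' ends were those of short isoforms. Of the 374 peaks whose gene has a coding GENCODE model under the same symbol, 45 (12.0%) lay more than 10 kb before the furthest 3' end of the gene. The strong NF1 peak was 154.4 kb before it, and the RNF130 peak 42.8 kb. The median 3' UTR peak was 2094 bp before the furthest end. Of 116 TTS peaks of coding transcripts with such a model, 69 lay past it.

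The gene named by the list was mostly another gene than the one that ends there. The names are those of the nearest TSS. For 147 of the 405 3' end peaks with both symbols (36.3%, Wilson 95% interval 31.8 to 41.1%) the named gene was that of the annotated transcript, against 72.1% of intron peaks (interval 71.4 to 72.8%). The share was 30.1% for 3' UTR peaks and 47.0% for TTS peaks, and within the latter 37.4% for coding and 79.4% for non-coding transcripts. The centre was upstream of the TSS of the named gene in 101 3' UTR peaks (39.3%), 37 TTS peaks (24.2%) and 20.6% of intron peaks. The 410 peaks named 328 genes, 88 of which no other peak of the list named. By transcript they belonged to 340 genes, with 3 peaks that had no symbol, and 56 of these genes had a 3' end peak named for another gene and were named by no peak at all. An intron peak was present in 225 of the 340 genes (66.2%).

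Most genes had a single peak at the 3' end, and 11 of the 340 had 3 or more. TAOK1, a kinase gene, had 5 in its 3' UTR with scores between 33.5 and 51.5, all named ABHD15, together with 37 intron peaks. ZBTB10, a zinc finger gene, had 4 under its own name with scores from 35.6 to 60.9, and NOTCH2NLA had 4 named NBPF25P that did not exceed 39.6. CBX5, which encodes the heterochromatin protein HP1 alpha, had 3 peaks that were named for the microRNA gene MIR3198-2. PPP3R1, the regulatory subunit of calcineurin, had 3 named PNO1, ZNF264 had 3 named AURKC, and SSH2, a cofilin phosphatase gene with 67 intron peaks, had 3 named CORO6. NUFIP2 and EPM2AIP1 had 3 each and no intron peak. The peaks of NUFIP2 were named CRYBA1 and reached 69.4. ZNF451 and BRWD1 had 3 each as well, with the highest at 43.1 and 54.9. By name alone, OMG had 4 peaks, 2 of which belong to NF1 and 1 to EVI2B. COX18, CBR4, RAB11A and LOC100130744 had 3 peaks by name, in each case at the ends of 2 genes.

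Gene groups with a role in this cancer were counted by the gene that ends at the peak. Over all genes with a peak anywhere in an annotated transcript, 340 of 3763 (9.04%) had a 3' end peak. Androgen-driven prostate genes had 8 of the 410 peaks (1.95%, against 0.392% of intron peaks), in 4 of 29 genes, 10 of which had a peak anywhere. They were ZBTB10, the elongation factor gene ELL2 (57.0 and 41.0), the prostate transcript PART1 (51.6) and the efflux pump gene ABCC4 (33.3), and ZBTB10 alone gave 4 of the 8. By name, ZBTB10 was the single gene of the list, and the shares were 0.976% and 0.347%. Polycomb subunits had 4 of 34 genes with a 3' end peak, while 14 of the 34 had a peak anywhere in an annotated transcript, and the list held 0.976% of 3' end peaks against 0.398% of intron peaks. By name it was 2 genes, with 0.488% against 0.417%. PHC3 and RYBP belong to PRC1 complexes and had scores of 49.2 and 40.8, and YAF2, also of PRC1, had 35.3. EED, the subunit of PRC2 that binds methylated H3K27, had a TTS peak of 34.3 close to the lowest score of the list, named MIR6755. DNA repair genes had 4 of 50 (1.22% of 3' end peaks against 0.537% of intron peaks, and 26 genes with a peak anywhere), with NBN (85.5 and 51.4), the checkpoint kinase gene CHEK1 (48.5), the kinase gene ATM (36.0) and the helicase gene ERCC3 (34.2). By name 2 genes of this list had a 3' end peak, with 0.488% of 3' end peaks against 0.392% of intron peaks, and the contrast of both lists thus depends on the count by transcript, which was chosen after seeing the data. ERCC5, a repair endonuclease gene, was named by a peak of 42.8 in the 3' UTR of BIVM.

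Histone lysine methyltransferases and demethylases had 2 of 44 genes with a 3' end peak (23 of the 44 had a peak anywhere), KMT5B and the H3K4 demethylase gene KDM5A (54.2 and 36.8), and these held 0.976% of 3' end peaks against 1.54% of intron peaks for the list. KMT2E was named by a peak of 35.3 in the 3' UTR of SRPK2. PTPRJ, a receptor phosphatase gene, was the single gene with a 3' end peak among 22 adherens junction and catenin genes (0.244% of 3' end peaks against 0.745% of intron peaks, and 15 genes with a peak anywhere). Cleavage and polyadenylation factors (24 genes), SWI/SNF subunits (28 genes) and the androgen receptor with its cofactors (21 genes) had 0 genes with a 3' end peak, by transcript or by name. They held 0.404%, 0.322% and 1.02% of intron peaks, and 11, 6 and 11 of their genes had a peak anywhere, so that these zeros rest on few genes. The ETS factor list had 0 of 27 by transcript, with 5 that had a peak anywhere, although SPDEF, a prostate ETS factor, was named by a peak of 51.3 in the 3' UTR of ILRUN. CTNNB1, the gene of beta-catenin, was named by a TTS peak of 44.3 at the end of ULK4. None of the 14 genes that the study itself turns on, among them ARID2, CTNNA1 and EZH2, was named by a 3' end peak. Several of the 14, TMPRSS2 among them, had 0 intron peaks by transcript. The share over all genes with a peak in a transcript was 9.04%, so this zero also rests on few genes. These groups were described by count, without a test.

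The 410 peaks spread over the chromosomes much as intron peaks did, with 2 of 24 chromosomes apart. Chromosome 19 held 10 of them (2.44%, Wilson 95% interval 1.33 to 4.43%) against 0.771% of intron peaks (interval 0.646 to 0.919%), a ratio of 3.16. These 10 were clustered. ZNF264 alone gave 3, which lay with the peaks of ZNF805 and ZNF749 between chr19:57726707 and 57957712. The peaks of ZNF507, DPY19L3-DT and DPY19L3 were also near one another. The interval takes each peak as separate, so it is too narrow here and the ratio rests on few places. All 10 scored below 50, so that of the 82 3' end peaks with a score of 50 or more 0 lay on this chromosome (interval 0 to 4.48%), against 23 of 4145 intron peaks (0.555%), and the ratio rests on weaker peaks. Chromosome 20 held 8 (1.95%, interval 0.992 to 3.80%) against 4.91% of intron peaks (interval 4.58 to 5.26%). For the other chromosomes the intervals overlapped. Chromosome 8 had the most, 38 peaks (21 3' UTR and 17 TTS), followed by chromosome 12 with 36 and chromosomes 15 and 17 with 33 each. Chromosomes 16, X and Y had 0, where intron peaks were also few (22, 27 and 1). Among the 14 chromosomes with at least 10 of the peaks, their median score was below that of intron peaks in 9 and above it in 5.

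Peaks of the whole list thinned out past the gene end. Around the 3' ends of 7480 coding genes of at least 10 kb with no other coding gene within 10 kb of the end, 773 peak centres fell on the gene side within 10 kb and 238 on the outer side, a ratio of 3.25. The last kb before the end had 8.82 peaks per 1000 ends, and the first kb after it had 3.74. The course was uneven, with 5.75 between 1 and 2 kb after the end and 8.16 between 6 and 7 kb inside the gene. Between 9 and 10 kb, the values were 14.2 inside and 1.87 outside. By space, 3' UTRs outside the end windows had 10.9 peak centres per Mb and the windows of coding transcript ends 8.11, against 13.8 per Mb in introns and 9.38 in other exons.

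**Figure D4:**
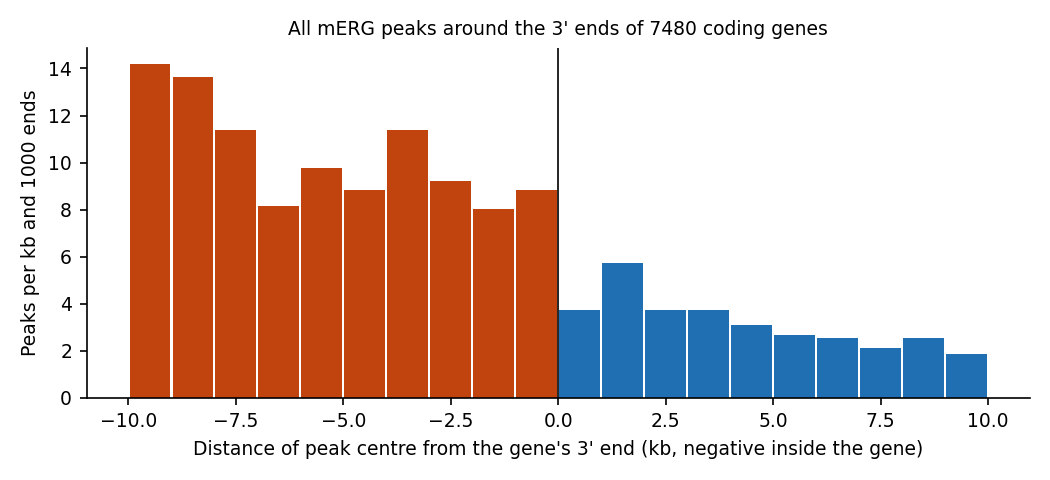
Number of mERG peak centres per kb and 1000 gene ends (y axis) by distance from the 3' end of 7480 coding genes in kb (x axis, negative inside the gene), with a bar for each 1-kb bin. The value falls from 8.82 in the last kb of the gene to 3.74 in the first kb after it, and is 5.75 between 1 and 2 kb after the end.

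Peaks at 3' ends had neighbours slightly further away than intron peaks did. The nearest other peak was a median of 4.10 kb away for 3' UTR peaks and 5.38 kb for TTS peaks, against 3.31 kb for intron peaks, centre to centre. It lay within 5 kb for 210 of the 410 peaks (51.2%) and 59.5% of intron peaks. That neighbour was an intron peak in 230 cases (56.1%) and another 3' end peak in 118. For intron peaks it was another intron peak in 94.8% and a 3' end peak in 191 of 15821.

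The DNA under 3' end peaks was AT-rich, as it was 1 kb away and at intron peaks. In windows of 201 bp around the centre, the median GC content was 36.3% for 3' UTR peaks, 37.8% for TTS peaks and 38.3% for intron peaks. For both classes together it was 36.8% at the centre and 37.8% in windows 1 kb away. Windows 1 kb from intron peaks had 39.8%. GGAA on either strand was present in 90.2% of 3' end windows (interval 87.0 to 92.8%), against 81.7% of windows of the same length 1 kb to either side and 83.5% of intron peak windows (interval 82.9 to 84.1%). AGGAAG, which contains GGAA, was in 21.0% of 3' end windows and 15.4% of those 1 kb away. Around intron peaks, windows 1 kb away held GGAA in 78.7% and AGGAAG in 16.1%. By class it was in 26.1% of TTS windows (interval 19.8 to 33.6%), 17.9% of 3' UTR windows (interval 13.7 to 23.0%) and 16.9% of intron windows. The other form, CGGAAG, was rare in every class, with 2.44% of 3' end windows and 1.41% of intron windows. The doubled core GGAAGGAA was in 13 of 410 windows (3.17%, interval 1.86 to 5.35%), in 0.976% of windows 1 kb away and in 1.52% of intron windows. Of the windows 1 kb from intron peaks, 1.60% held it. The DNA form of the poly(A) signal, AATAAA on either strand, was in 36.6% of 3' end windows and 34.6% of intron windows. These shares are descriptions and were not adjusted for base composition.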

How the data were processed

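The authors deposited 1 list of peaks from the mERG ChIP library and its control. Per the file header, MACS peaks on hg19 were annotated with HOMER. The submitters' processing notes also name Bowtie2 and Picard, with no version. The MACS version and threshold are not given in the sources used here. Peak strength is given by the authors' score. Early MACS versions write −10 times the log10 of a p-value there, which the list does not state. The score is not normalized to depth.

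From the list, the class was the location annotation before its bracket, width was end minus start plus 1, and the centre was the midpoint. The gene of the annotated transcript came from RefSeq names (GRCh38.p14, names only). Positions and sequences came from GENCODE release 44 and the genome on GRCh37, whose names and lengths held every peak on chromosomes 1 to 22, X and Y. The other 33 peaks of the list, 9 of them in introns and 0 at 3' ends, lay on other sequences of the build and were left out wherever positions were used. Medians were compared with Fisher's exact test on the numbers of peaks above and not above the joint median, with Benjamini-Hochberg adjustment over 8 comparisons. Genes were compared with an exact binomial sign test. Shares have Wilson 95% intervals, which cover counting error only. The functions were tested on simulated data. Tables were handled with pandas 2.3.3 under Python 3.11.15, tests run with SciPy 1.17.1 and NumPy 2.4.6, and figures drawn with Matplotlib 3.10.9.

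Named genes were the 10 highest scoring and 5 widest peaks of each class, genes with at least 3 of the peaks, members of the gene lists and the genes the study examined. A gene list is not reported here. The members and lists were chosen with earlier results of these data known. Genes counted by annotated transcript and nested genes were added after seeing the data. The alternatives were score minimums, chromosomes 1 to 22 and X, removal of peaks over 5 kb and of the highest 1% by score, 1 peak per gene, intron peaks of the same genes, coding transcripts only, other classes in place of introns, and, added after seeing the data, the list without chromosome 8 or 17 and other pairings of genes.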

Additional observations from a re-analysis of the deposited data

How the results depend on the processing

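Of 56 values under other settings, 41 kept direction and side of the threshold. For shares and ratios, which have no test, a value inside the interval of the main value was counted as kept. With scores of 50 or more, the score differences from introns, -3.40 for 3' UTR peaks (44 left) and -1.66 together, no longer passed the test, and the width differences turned to 138.5 bp (3' UTR), 74.5 bp (together) and 136 bp (3' UTR against TTS), none past it. With 1 strongest peak per gene, TTS scores were lower than intron scores by -4.42 (median difference), which passed, and in the same-gene comparison 75.1% of genes were lower at the 3' end. Both compare the strongest of few peaks with the strongest of many (281 against 1280 in the latter). Against intron peaks of the same named genes, score differences grew to -3.49 (3' UTR), -1.97 (TTS, not past the test) and -2.99 (together), and widths differed by -83 bp (3' UTR), -67 bp (TTS, turned) and -77 bp (together), all past the test, while widths compared gene by gene by name differed by -7 bp, not past it. With coding transcripts only, width turned to -21 bp (TTS against introns) and 10 bp (3' UTR against TTS). The share of 20.0% was 9.51% at 60 and 44.6% at the median score of all peaks, by construction. Of 23 alternatives added after seeing the data, 19 were counted as keeping direction and side of the threshold. These include the TTS pairs by transcript, which had no direction, with 41 of 82 genes lower. TTS width turned to -15 bp without chromosome 8 and -7 bp without chromosome 17, and pairing by transcript gave 56.9% of genes lower, 62.4% with 3' UTR peaks alone and, not past the test, 56.1% with at least 3 intron peaks. The chromosome 19 ratio fell from 3.16 to 0 at scores of 50 or more, with 0 of 82 peaks. Libraries could not be paired, since each group has 1. The unknown depth limits all scores.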
